A study of Mus musculus with 2 samples.

Results

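The RNAs described here are 9 genes annotated as noncoding, of 32285 genes in the deposited count tables: Malat1, Neat1, Meg3, Kcnq1ot1, Gm11867, Gm27168, Gm26917, B830012L14Rik and Gm34759. They were chosen by name, as RNAs known to stay in the nucleus or as RNAs whose UMI counts in earlier results of these data differed strongly between the libraries. The difference between the libraries was therefore used in the choice and is given as a description, with no test. The series holds 2 single-cell libraries of pancreatic islet cells from DIO mice, an abbreviation that the labels do not spell out and that usually stands for diet-induced obesity. One library came from mice given saline and the other from mice given 10 mg/kg CDS, both for 2 weeks before the islets were isolated. The title of the series names an antagonist of the alpha2A-adrenergic receptor, but no label says what CDS stands for. The sources used here do not give strain, sex, age, diet or the number of animals pooled in a library. With 1 library per group there is no replicate check, so no p-value is given, and intervals cover counting error only.

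Many long noncoding RNAs stay in the nucleus, close to the DNA from which they are transcribed, whereas messenger RNAs are exported and translated. Malat1 gathers in nuclear speckles, the bodies that store splicing factors, and Neat1 is the scaffold of paraspeckles, which hold back RNAs and RNA-binding proteins. Meg3 is the maternally expressed RNA of the imprinted Dlk1-Dio3 domain, where imprinted means that a single parental copy is active. Kcnq1ot1 is transcribed from the paternal chromosome, antisense to the potassium channel gene Kcnq1, and silences neighbouring genes of that domain. B830012L14Rik lies in the Dlk1-Dio3 domain between Rian and Mirg, the host transcripts of snoRNAs and microRNAs. Gm26917 lies 617 bases from Gm42418, in a locus that carries repeated ribosomal RNA sequence. Gm11867, Gm27168 and Gm34759 have no role that could be stated with confidence.

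A UMI marks 1 captured RNA molecule. In all, 124343325 UMIs over 12453 barcodes were counted for saline and 141191447 over 7268 barcodes for CDS. After filters, 10977 saline and 6159 CDS cells were kept, with medians of 9794 and 19069 UMIs per cell, and 25 barcodes occurred in both libraries. Mitochondrially encoded genes took a median of 2.47% of the UMIs of a saline cell and 1.42% of those of a CDS cell. The label names islet b cells, but only 4920 saline and 3609 CDS cells passed the insulin gate for beta-like cells, and others passed gates on markers of alpha, delta, PP, endothelial, immune, stromal or acinar cells. B-like cells numbered 937 against 33 and T-like cells 1276 against 18, saline against CDS. In beta-like cells, the median share of UMIs from genes that span more than 100 kb was 14.3% in the saline and 7.75% in the CDS library, and the insulin share was 34.5% and 40.3%. Depth, mitochondrial share, long-gene share and insulin share therefore all differed between the libraries beside every ratio given below, and their part in those ratios cannot be told apart from the treatment.

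Levels are CPM, a gene's share of the UMIs summed over a class times a fixed constant, with an exact Poisson 95% interval, in the 11 marker-gated classes that held at least 30 cells in a library. The ratio between libraries, CDS over saline, was scaled by TMM, which sets the bulk of genes to equal levels, and was computed for the 5 classes with at least 100 cells in each library. A gene was taken as measured where both libraries had a UMI of it in the class and their sum was 50 or more. A difference of at least 1.5-fold was used only to count genes.

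In beta-like cells, 6 of the 9 RNAs were at least 1.5-fold lower in the CDS library: Neat1, Kcnq1ot1, Gm11867, Gm26917, B830012L14Rik and Gm34759. One, Gm27168, was at least 1.5-fold higher, and Malat1 and Meg3 were within that range. Of 15308 measured genes in beta-like cells, 9.48% were lower and 15.5% higher by the same fold; since the RNAs were chosen on this contrast, nothing is read from the comparison. In alpha-like cells 3 of 7 measured members were lower and 0 higher, beside 4.3% and 10.2% of all measured genes. In delta-like cells 2 of 7 were lower and 0 higher, beside 4.97% and 7.92%. In endothelial-like cells 5 of 6 were lower and 0 higher, beside 9.12% and 10.3%. With called doublets kept, 4 of 6 were lower, since Meg3 was then at 0.683. The 5 include Meg3, from which no difference in this class is read below, and Gm26917, at 1.11 as a mean over cells. In macrophage-like cells 3 of 6 were lower and 1 higher, beside 10.1% and 13.7%. The members not counted in a class were Gm27168 and Gm34759 in all 4 of these other classes, and B830012L14Rik in endothelial-like and macrophage-like cells, where counts were too low.

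**Figure D1:**
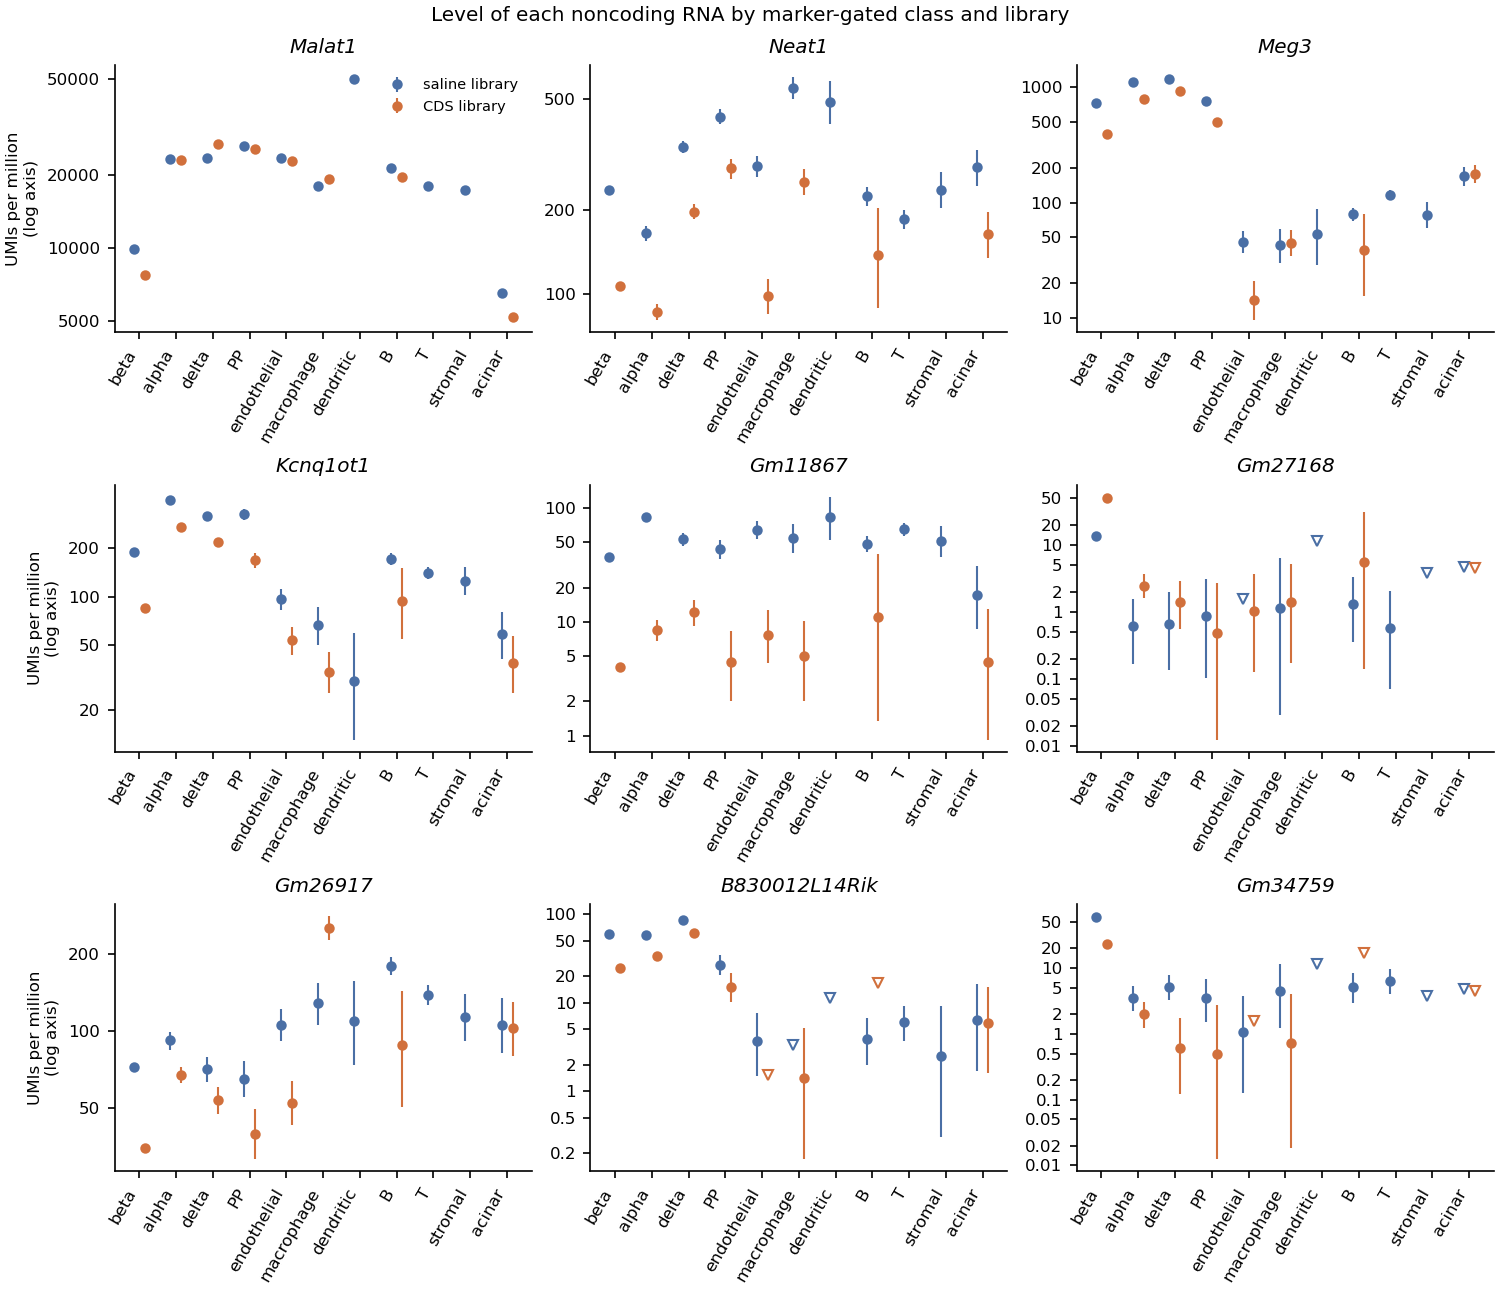
Level of each RNA (y, CPM, log axis) in each marker-gated class (x) with at least 30 cells, in the saline (blue) and the CDS (orange) library; bars are exact Poisson 95% intervals, and open triangles mark the limit that a count of 0 allows, 3 UMIs of the class total. Gm11867 lies lower in the CDS library in all 8 classes with both libraries, and Gm27168 and Gm34759 stand above their other levels in beta-like cells.

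Gm11867 had the lowest ratio of the 9 in beta-like cells and was lower in the CDS library in each of the 8 classes with both libraries. It lies on the plus strand of chromosome 4 (mm10, chr4:18407349-18891842), where GENCODE M21 annotates 1 transcript of 11 exons and 1909 exonic bases over a span of 484.49 kb; its 3′ end lies inside Cnbd1, a gene on the opposite strand. Gm27168, which was higher in the CDS library, is short, with 2 exons and 361 exonic bases on chromosome 8. The kit primes on runs of A, such as a poly(A) tail, so the annotated 3′ ends are given to show which of them hold a poly(A) signal. The last 120 bases of an annotated transcript of Gm11867, and of Malat1 as the RNA with the TMM-scaled ratio nearest to 1, are given 5′ to 3′ from the GENCODE M21 transcripts, with the poly(A) signal letters AATAAA in capitals.
Gm11867-201: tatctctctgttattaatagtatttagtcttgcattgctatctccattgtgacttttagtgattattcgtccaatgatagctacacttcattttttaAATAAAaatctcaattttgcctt
Malat1-201: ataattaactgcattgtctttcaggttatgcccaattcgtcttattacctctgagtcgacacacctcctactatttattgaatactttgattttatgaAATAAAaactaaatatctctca
They stand at chr4:18891723-18891842 (plus strand) and chr19:5795690-5795809 (minus strand). The signal begins 23 bases before the end in Gm11867 and 22 in Malat1, so both annotated ends carry it. The mature Malat1 RNA is known to end elsewhere, without a poly(A) tail, and its annotated transcript holds an internal run of 12 A. The longest run of A is 41 in the Kcnq1ot1 transcript, 16 in those of Meg3 and 5 in that of Gm11867, and 4.2% of the GENCODE transcripts have a run of 12 or more. The letters AATAAA or ATTAAA on the transcribed strand occur in the last 50 bases of 34.7% of 137364 GENCODE transcripts of at least 120 bases. None of the annotated transcripts of Gm26917, B830012L14Rik or Gm34759 held them in that window, which says only that these letters are not there.

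In beta-like cells, Gm11867 was counted with 2975 saline and 396 CDS UMIs, or 37.3 (95% interval 35.9 to 38.6) and 3.98 (3.59 to 4.39) CPM. The ratio was 0.141 (0.127 to 0.157), a 7.1-fold lower level, and 99.6% of measured genes had a higher ratio. The share of beta-like cells with at least 1 UMI was 42.2% in saline and 9.09% in CDS, and after every cell was thinned to 5000 UMIs it was 17.5% and 1.71%; 180 saline and 282 CDS cells had fewer UMIs and were left out of the thinned shares. The saline library was thus higher whether levels or shares were compared.

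The ratio of Gm11867 was 0.110 in alpha-like cells, 0.248 in delta-like, 0.132 in endothelial-like and 0.0998 in macrophage-like cells. The highest upper bound of these was 0.330, in delta-like cells. Levels in the saline library ran from 17.4 CPM in acinar-like to 83.7 in alpha-like cells, and those in the CDS library from 3.98 in beta-like to 12.1 in delta-like cells. The lowest saline class was above the highest CDS class, and in 7 of the 8 classes seen in both libraries the intervals were apart. Only acinar-like cells, with 11 and 3 UMIs, had intervals that overlapped. A few cells weighed on the small counts: 1 saline alpha-like cell held 81 of 546 UMIs, and 1 CDS delta-like cell held 24 of 61. Without the cell with most UMIs in each library, the ratio was 0.122 in alpha-like and 0.153 in delta-like cells.

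Gm11867 was counted in each class of the saline library, at 65.6 CPM in T-like, 48.2 in B-like and 64.2 in endothelial-like cells, beside 37.3 in beta-like cells. T-like and B-like cells of that library had a median insulin share of 4.11% and 4.72%, so free RNA was present in these droplets. Free RNA with the makeup of beta-like cells would, scaled by the insulin share, bring 4.45 CPM of Gm11867 to T-like, 5.10 to B-like and 2.32 to endothelial-like cells. The level was above that value, with its interval, in all 17 other class and library levels; free RNA from other cells was not tested. With hormone, acinar and mitochondrial UMIs taken out of the total, its saline level was 65.1 in beta-like, 66.2 in delta-like and 66.8 in endothelial-like cells, and 102 in alpha-like cells. In the thinned saline cells, a UMI was found in 29.2% of alpha-like, 26.0% of delta-like, 25.8% of endothelial-like and 24.4% of macrophage-like cells. In beta-like cells it was found in 17.5%. Insulin UMIs fill part of the 5000 in beta-like cells, with a median share of 34.5%, so no order of classes is read from this. Thinning left out 157 of 320 endothelial-like and 68 of 146 macrophage-like saline cells. No class is known that should lack Gm11867, so these shares have no background beside them. Among the genes most like it over the 19 class and library levels were mt-Nd6, a mitochondrially encoded subunit of respiratory complex I (Pearson r = 0.826), and Snapc3 (0.809).

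The genes around Gm11867 were also read. The overlapping gene Cnbd1, on the other strand, gave 5 and 3 UMIs in beta-like cells. The neighbours of Gm11867 on the same strand, Mmp16 and Cngb3, 288204 and 389008 bases away, lay below 1 in beta-like cells, at ratios of 0.572 (466 against 252 UMIs) and 0.381 (50 against 18 UMIs). Both are long genes. Groups of genes with a median span of 160 and 342 kb had median log2 ratios of -0.396 and -0.537 in these cells. Mmp16 encodes a membrane-bound matrix metalloproteinase and Cngb3 a subunit of the cone photoreceptor channel. Cpne3, the next gene on the opposite strand, was at 1.12. In alpha-like cells, where Gm11867 was at 0.110, Mmp16 lay above 1, at 1.38 (1.04 to 1.84; 75 against 153 UMIs), on the other side of 1 from Gm11867.

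Gm27168 was the only member that was higher in the CDS library by 1.5-fold in beta-like cells. It was counted with 1076 UMIs in saline and 5020 in CDS, or 13.5 (12.7 to 14.3) and 50.4 (49.0 to 51.8) CPM, and the ratio was 4.94 (4.62 to 5.28). Among cells of like depth, 15000 to 20000 UMIs, it was 2.18, and over 6 clusters of beta-like cells its median was 2.51. Of all measured genes, 0.0588% had a higher ratio than 4.94. After thinning to 5000 UMIs, 5.44% (4.81 to 6.13) of saline and 14.7% (13.5 to 16.0) of CDS beta-like cells had a UMI. Level and share were thus both higher with CDS. Thinned the same way, alpha-like cells had a share of 0.139% in saline and 0.491% in CDS.

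Outside beta-like cells Gm27168 was near the limit of detection. It gave 4 UMIs in 778 alpha-like saline cells and 26 in 884 alpha-like CDS cells, or 0.613 and 2.47 CPM, and 3 and 7 UMIs in delta-like cells. It was listed at 0 in saline endothelial-like cells, where a count of 0 allows up to 1.58 CPM (3 UMIs of the class total), and 2 UMIs were found in CDS endothelial-like cells. Insulin RNA also occurred outside beta-like cells, with a median share of 1.81% in saline and 1.73% in CDS alpha-like cells, and free RNA with the makeup of beta-like cells, scaled by that share, would bring 0.708 and 2.17 CPM of Gm27168 to them. In all 17 levels outside beta-like cells the interval of Gm27168 held the value so computed, and these counts are read as background. Over the 19 class and library levels, the genes with the pattern most like Gm27168 were the insulin genes Ins1 (Pearson r = 0.840) and Ins2 (0.828) and the prodynorphin gene Pdyn (0.789), among 8055 genes. The 4 nearest annotated genes gave at most 8 UMIs each in beta-like cells of a library.

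**Figure D2:**
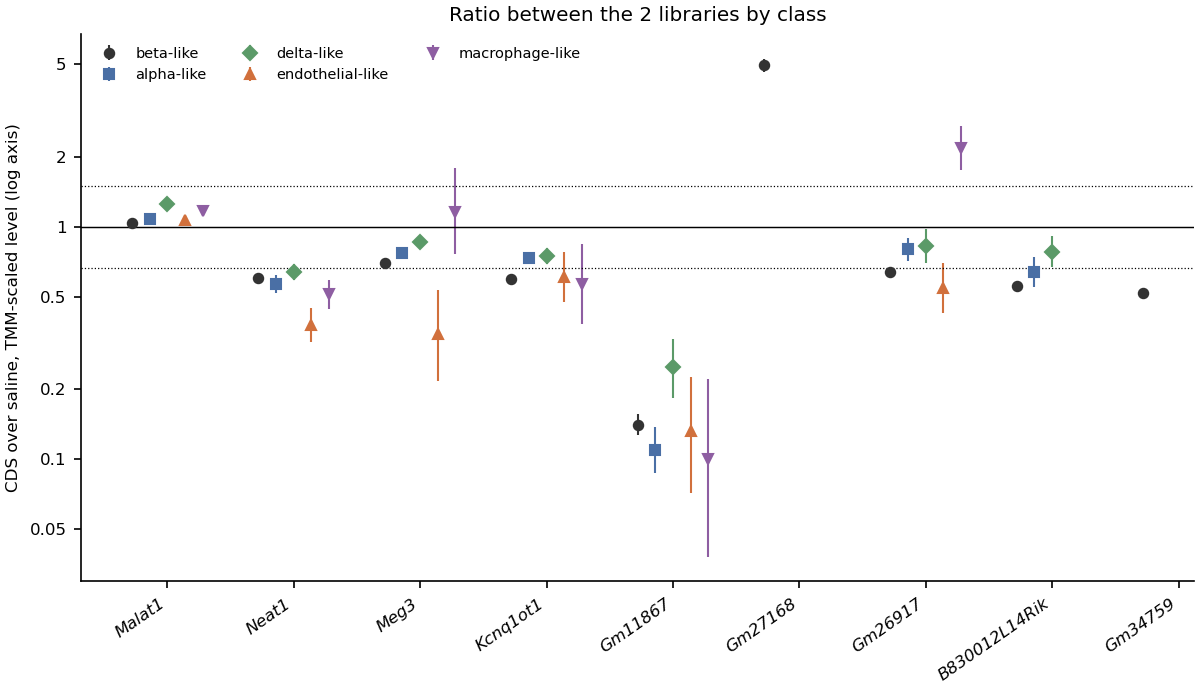
Ratio of each RNA between libraries (y, CDS over saline, TMM-scaled, log axis) in the 5 classes with enough cells, shown by symbol; bars are exact conditional 95% intervals from counting error, the solid line is a ratio of 1 and the dotted lines are 1.5-fold. Gm11867 lies between 0.0998 and 0.248, Gm27168 was measured in beta-like cells alone at 4.94, and Malat1 lies between 1.04 and 1.253 under this scaling; its ratio in beta-like cells is 0.787 without it.

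Gm34759, on chromosome 15 (chr15:12068248-12085197, minus strand, 6 exons), was likewise mostly a beta-like cell RNA but lower in the CDS library. It was counted with 4701 and 2310 UMIs in beta-like cells, or 58.9 (57.2 to 60.6) CPM in saline and 23.2 (22.3 to 24.2) in CDS, at a ratio of 0.520 (0.495 to 0.547). In no other class did it exceed 6.33 CPM, the level in saline T-like cells. It gave 23 and 21 UMIs in alpha-like cells and 23 and 3 in delta-like cells, too few for a ratio. Its interval held the value that the insulin share gives for free beta-cell RNA in 15 of the 17 levels outside beta-like cells. After thinning, 22.8% of saline and 9.77% of CDS beta-like cells had a UMI of it, and 2.36% and 0.614% of alpha-like cells. The genes with the most similar levels across classes were G6pc2 (r = 0.876), the islet glucose-6-phosphatase, the prolactin receptor gene Prlr (0.847) and the GABA-B receptor gene Gabbr2 (0.818). Its neighbours Zfr and Sub1 had ratios of 0.847 and 1.71 in beta-like cells, so that its neighbours lay on opposite sides of 1.

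Malat1 had the ratio nearest to 1 in beta-like cells under TMM. It lies on chromosome 19 (chr19:5795690-5802672, minus strand, 1 exon) and gave 790374 UMIs in saline and 776153 in CDS beta-like cells, or 9899.6 and 7793 CPM, with a TMM-scaled ratio of 1.04 (1.036 to 1.043). The ratio was 1.08 in alpha-like cells, 1.253 in delta-like cells, 1.07 in endothelial-like and 1.17 in macrophage-like cells. This direction depends on the processing. Without TMM the ratio in beta-like cells was 0.787, and the median of all genes was then moved by -0.40 on the log2 scale. In plain CPM, Malat1 was lower in the CDS library in 6 of the 8 classes with both libraries and higher in the other two. With DESeq2 size factors, the median in beta-like cells moved by -0.03 and the ratio of Malat1 there was 1.02. Without hormone, acinar and mitochondrial UMIs in the total, that ratio was 0.882. With classes taken from clusters it was 0.995, and after thinning to 5000 UMIs 0.994.

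Malat1 levels were lowest in acinar-like cells, at 6560.7 and 5226 CPM in saline and CDS, followed by beta-like cells. In the saline library the highest level was that of dendritic-like cells, at 49915 CPM over 71 cells, then PP-like cells at 26411. Delta-like, endothelial-like and alpha-like cells at 23532, 23520 and 23292 had neighbouring intervals that overlapped, as did T-like and macrophage-like cells, both at 18164. In beta-like cells the insulin share lowers all other levels: without hormone, acinar and mitochondrial UMIs in the total, Malat1 was at 17288 in saline and 15243 in CDS beta-like cells, still under the 28271 and 28418 of alpha-like cells. The most similar genes over the 19 levels were Atl3, Rab5b and Paxbp1, with r between 0.897 and 0.901.

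Neat1, whose gene lies 22036 bases from Malat1 on the same strand (chr19:5824708-5845478), was lower in the CDS library in all 8 classes, with intervals apart in each. In beta-like cells it gave 18746 and 10617 UMIs, or 235 and 107 CPM, at a ratio of 0.600 (0.585 to 0.614). The ratio was 0.570 in alpha-like cells, 0.638 in delta-like, 0.377 in endothelial-like and 0.511 in macrophage-like cells. One saline macrophage-like cell held 152 of 485 UMIs, and without the top cell of each library the ratio there was 0.698, within 1.5-fold. The highest levels in saline were those of macrophage-like (545) and dendritic-like (488) cells, whose intervals overlapped, and the lowest that of alpha-like cells (165). The macrophage-like level includes the 152 UMIs of that 1 cell. In CDS the highest were those of PP-like (281) and macrophage-like (253) cells, whose intervals overlapped. The gene most like Neat1 over the 19 levels was Tmem164, with r = 0.668, the lowest best match of the 9 RNAs.

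Genes of the proteins that build paraspeckles with Neat1 were mostly within 1.5-fold, as were most measured genes. Of 15 listed paraspeckle protein genes, all measured in beta-like cells, 0 were lower and 1 was higher by 1.5-fold. Of all measured genes, 9.48% were lower and 15.5% higher by that fold. The median log2 ratio of the 15 was 0.0173, beside 0.0578 over all measured genes. The one higher was Cirbp, a cold-inducible RNA-binding protein, at 60.8 and 111 TMM-scaled CPM and a ratio of 1.83; Hnrnph3, a splicing regulator, had 1.34. Of 29 genes of nuclear speckles and splicing, which surround Malat1 in the nucleus, 0 were past 1.5-fold in either direction in beta-like cells. The same shares of all measured genes stand beside this count, and the median of the 29 was 0.0804. The splicing factors Srsf7 and Srsf3 were at ratios of 1.49 and 1.43.

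Meg3 and B830012L14Rik, from the same imprinted domain on chromosome 12 (chr12:109541001-109571726 and chr12:109695586-109702587, plus strand), stood highest in the 4 endocrine classes. Meg3 stood at 734 CPM in saline beta-like cells, 1107 in alpha-like cells, 1183 in delta-like and 753 in PP-like cells, while endothelial-like cells had 45.8 and macrophage-like cells 42.7. Free RNA of beta-like cells would bring, by the insulin share, 45.7 and 43.9 CPM to the latter pair, so both saline levels are read as background. This did not hold everywhere. CDS macrophage-like cells had 44.9 (34.5 to 57.4) CPM of Meg3 beside 17.9 so computed. Saline T-like (115.7 beside 87.5) and stromal-like cells (78.4 beside 32.8) were also above it. In saline dendritic-like, CDS endothelial-like and CDS B-like cells the interval held the value, and saline B-like cells lay below it. B830012L14Rik stood at 59.3, 57.6, 85.2 and 26.8 in the same endocrine classes, and at 6.32 or less in every other class of the saline library. Acinar-like cells had the highest level of Meg3 outside the endocrine classes, at 169 in saline and 177 in CDS.

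Between the libraries, Meg3 gave 58584 and 38805 UMIs in beta-like cells, or 734 and 390 CPM, and a ratio of 0.701 (0.692 to 0.710), just short of 1.5-fold. Gm26917, at 0.638, was the member nearest to that fold on the other side. The ratio of Meg3 was 0.774 in alpha-like cells, 0.860 in delta-like and 0.346 (0.217 to 0.535) in endothelial-like cells, where it rests on 87 and 28 UMIs. The endothelial-like levels of 45.8 and 14.4 CPM stood beside 45.7 and 17.05 for free beta-cell RNA, so no difference within endothelial-like cells is read from them. With called doublets kept, that ratio was 0.683. In macrophage-like cells the ratio was 1.16 (0.763 to 1.78), an interval that holds 1. B830012L14Rik gave 4736 and 2476 UMIs in beta-like cells and a ratio of 0.553 (0.527 to 0.581), with 0.640 in alpha-like (0.727 with classes taken from clusters) and 0.781 in delta-like cells. The pair thus lay below 1 in all 3 endocrine classes with a ratio.

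Other genes of the Dlk1-Dio3 domain lay mostly below 1 in beta-like cells. Of 9 listed genes, 8 were in the files and 5 measured in beta-like cells. By 1.5-fold 3 were lower and 1 higher, beside 9.48% and 15.5% of all measured genes. The median log2 ratio was -0.588, beside 0.0578 over all measured genes. It was -0.403 in alpha-like and -0.444 in delta-like cells. Only 1 gene was measured in endothelial-like cells, at 0.174, and 1 in macrophage-like cells, at -0.445. Rian went from 155.8 to 104 TMM-scaled CPM (14293 and 8983 UMIs), a ratio of 0.665, and Mirg from 31.8 to 20.9, a ratio of 0.657. Rtl1, a retrotransposon-derived gene on the opposite strand that is expressed from the paternal copy, had a ratio of 0.403 on 239 and 91 UMIs. Dlk1, the paternally expressed Notch-like protein gene next to Meg3, had 1.70 on 102 and 164 UMIs; in delta-like cells it lay on the other side of 1, at 0.661 (0.457 to 0.949) on 78 and 53 UMIs. The gene most like B830012L14Rik over the 19 levels was Rian, with r = 0.983, and those most like Meg3 were Kcnmb2, a potassium channel subunit, the nuclear receptor Esrrg and Ptprn2, a granule membrane phosphatase (r between 0.985 and 0.987). The domain's genes share both libraries and their depth, so these correlations are descriptions.

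Kcnq1ot1 (chr7:143203458-143296549, minus strand, 93.09 kb in 1 exon) was lower in the CDS library in all 8 classes, with intervals apart in 7. It gave 15007 and 8444 UMIs in beta-like cells, or 188 and 84.8 CPM, and a ratio of 0.596 (0.580 to 0.612). The ratios were 0.734 in alpha-like cells, 0.748 in delta-like, 0.611 in endothelial-like and 0.568 (0.380 to 0.846) in macrophage-like cells. Alpha-like cells had the highest level in both libraries, at 397 and 268 CPM, and dendritic-like cells the lowest in saline, at 30.2 on 8 UMIs. Its levels were most like those of Ptpn4, Rere and Rev3l, with r between 0.936 and 0.958. Kcnq1 itself gave 44 and 17 UMIs in beta-like cells; whether counting used the strand is not given in the sources used here, so reads of the overlapping pair may not be told apart.

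The other genes of the imprinted domain that Kcnq1ot1 acts in were mostly within 1.5-fold, as were most measured genes. Of 16 listed, 12 were measured in beta-like cells, 1 lower and 1 higher by 1.5-fold, beside 9.48% and 15.5% of all measured genes. The median log2 ratio was -0.0999, beside 0.0578 over all measured genes. The tetraspanin gene Cd81 was the one past 1.5-fold upward, at a ratio of 1.80, the one past it downward was Kcnq1, at 0.409, and Tssc4 was at 1.49. Cdkn1c, the imprinted cell cycle inhibitor next to Kcnq1ot1, gave 9 and 10 UMIs in beta-like cells, too few for a ratio.

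Gm26917 (chr17:39843013-39846341, plus strand, 1 exon block) lay below 1 in beta-like cells, with 5783 and 3487 UMIs, 72.4 and 35.01 CPM and a ratio of 0.638 (0.612 to 0.666). It was at 0.798 in alpha-like cells, 0.826 in delta-like and 0.545 (0.425 to 0.695) in endothelial-like cells, and at 2.18 (1.76 to 2.71) in macrophage-like cells. That ratio rested on few cells: 1 CDS macrophage-like cell held 175 of 355 UMIs, and 2 cells held at least 50% of them. Without the top cell of each library the ratio was 1.16, among cells of 5000 to 15000 UMIs it was 0.514, and after thinning to 5000 UMIs 0.444. In endothelial-like cells, 1 saline cell held 50 of 201 UMIs, and as a mean over cells the ratio was 1.11. Gm42418, annotated as a lincRNA, begins 617 bases beyond Gm26917 and had ratios of 0.955 in beta-like and 0.656 in macrophage-like cells. AY036118, within the same locus, had 0.825 and 0.738. The locus carries repeated ribosomal RNA sequence, so how counting split the reads is uncertain. B-like cells had the highest saline level of Gm26917, at 180 CPM, and PP-like cells the lowest, at 65.2. The most similar levels were those of Runx1, a blood cell transcription factor (r = 0.841), the interferon-induced Ifi27l2a (0.839) and the cell cycle kinase Cdk6 (0.818).

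The list of nuclear RNAs had a median log2 ratio below 0, and the list of exported RNAs and snoRNA hosts a median above it. The lists do not part these kinds cleanly. The first also holds Rian, a host transcript of snoRNAs, and Snhg11 and Snhg14, snoRNA host genes by name. It holds Gm42418 and AY036118 too, from the locus of ribosomal RNA sequence. Gene span, which moved with the ratio as given below, was not matched between the lists. Its part in their medians was not tested. Of 24 listed nuclear or chromatin-bound RNAs besides the 9, 16 were measured in beta-like cells, of which 6 were lower and 1 higher by 1.5-fold, with a median log2 ratio of -0.482, beside 9.48% lower, 15.5% higher and a median of 0.0578 over all measured genes; Rian and Mirg are on this list too. Airn, the antisense RNA of the imprinted Igf2r domain, went from 146.0 to 90.6 TMM-scaled CPM, a ratio of 0.620. The one higher was Tsix, named after its value was seen, which is antisense to Xist and may share reads with it, at a log2 ratio of 1.06. Of 25 listed RNAs that leave the nucleus or host snoRNAs, 21 were measured, of which 1 was lower and 12 higher, with a median of 0.957; Snhg4 stands for 2 gene IDs in the files, 1 on each side. Snhg3 and Snhg8, both snoRNA host genes, had ratios of 2.59 and 2.11. In the 4 other classes the median of the nuclear list lay between -0.608 and -0.21 and that of the exported list between 0.618 and 1.08, while the medians over all measured genes lay between 0.0189 and 0.0738. In endothelial-like and macrophage-like cells the nuclear list held only 7 and 5 measured genes, and the exported list 17 and 8. The lists were drawn up with results of these data known, so these medians are a description.

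The span of a gene moved with its ratio in beta-like cells. In 20 equal groups of the other measured genes by annotated span, the median log2 ratio was 0.645 at a median span of 1.43 kb and -0.537 at 342 kb. Set against genes of like span, Gm11867 was lower by 2.29 and Gm27168 higher by 1.66 on the log2 scale. Relative to its span group, B830012L14Rik was at -1.25, Gm26917 at -1.17, Gm34759 at -1.12, Neat1 at -0.85, Meg3 at -0.56, Kcnq1ot1 at -0.55 and Malat1 at -0.34, so that 8 members lay below and 1 above the median of genes of like span. Since the RNAs were chosen on the contrast between the libraries, nothing is read from this count.

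**Figure D3:**
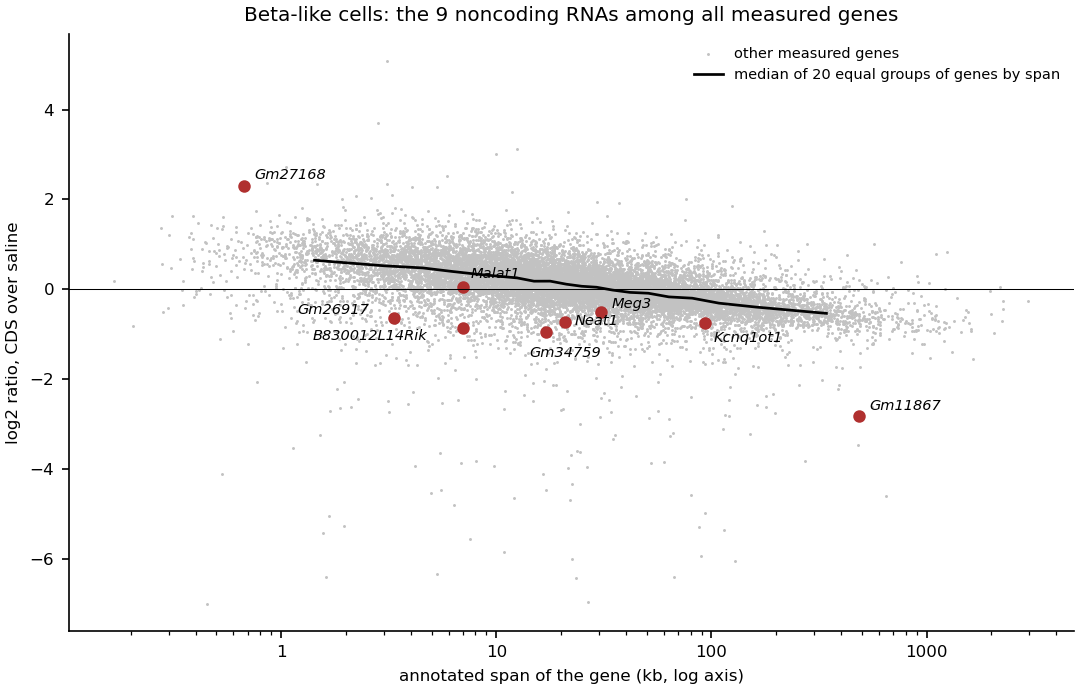
Log2 ratio between libraries (y, CDS over saline, TMM-scaled) against the annotated span of the gene (x, kb, log axis) for the measured genes of beta-like cells; grey points are other genes, red points the 9 noncoding RNAs, and the line joins the medians of 20 equal groups by span. The line runs from 0.645 to -0.537, and 8 of the 9 red points lie below it. The 9 RNAs were chosen on this contrast, so nothing is read from that count.

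Within beta-like cells, 8 of the 9 RNAs kept the same side of 1 in each of 6 Leiden clusters made without the 9 genes and holding at least 100 beta-like cells of each library. The RNAs were chosen on this contrast, and the share of all genes that kept their side was not computed. Nothing is therefore read from the count. The ratio of Gm11867 ran from 0.127 to 0.156 over the clusters, and that of Gm27168 from 2.01 to 5.94 with a median of 2.51, below the 4.94 of all beta-like cells together. The clusters held the 2 libraries in unequal numbers, for example 2195 saline and 255 CDS cells in the largest, where Gm27168 was at 7.38 and 14.8 TMM-scaled CPM. Gm34759 ran from 0.466 to 0.714, B830012L14Rik from 0.557 to 0.857, Neat1 from 0.518 to 0.721, Kcnq1ot1 from 0.549 to 0.826 and Meg3 from 0.719 to 0.876. Gm26917 ran from 0.525 to 0.995, the latter with an interval of 0.897 to 1.10, which holds 1. The exception was Malat1, which was below 1 in 2 of the 6 clusters.

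**Figure D4:**
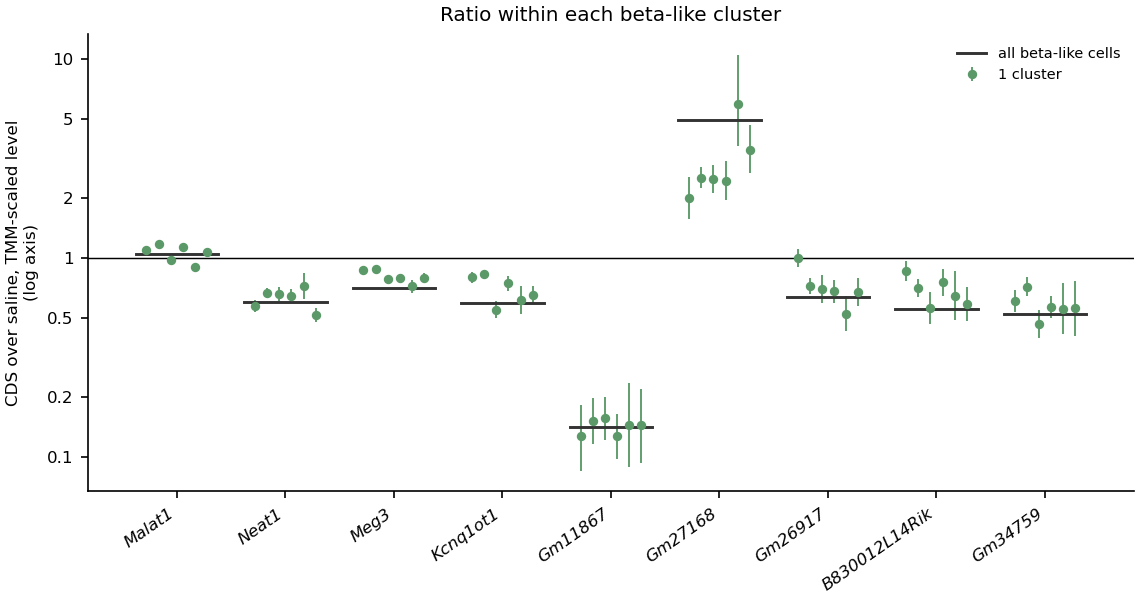
Ratio of each RNA between libraries (y, CDS over saline, TMM-scaled, log axis) within each of 6 clusters of beta-like cells (green points, with exact conditional 95% intervals from counting error) and over all beta-like cells (black lines). Gm11867 lies between 0.127 and 0.156 in the clusters, and Gm27168 between 2.01 and 5.94.

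Among beta-like cells of 15000 to 20000 UMIs, where depth was alike (1769 saline and 307 CDS cells), the ratio of Gm11867 was 0.139 and that of Gm34759 0.474. That of Gm27168 was 2.18, against 4.94 over all beta-like cells. Among cells with a mitochondrial share of 1.5 to 2% (821 and 822 cells), 3 members stayed past 1.5-fold, Gm11867 at 0.152, Gm34759 at 0.488 and Gm27168 at 4.24. Neat1, Kcnq1ot1, B830012L14Rik and Gm26917 were then at 0.676, 0.678, 0.685 and 0.733, within 1.5-fold but still below 1.

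Inside each library, the level of 8 of the 9 RNAs was higher in beta-like cells with a high mitochondrial share. This was read from 3 equal groups of cells by that share, in CPM of the UMIs that are not mitochondrially encoded, and does not use the contrast between the libraries. The median mitochondrial share was 1.66, 2.54 and 3.68% in the 3 saline groups of 1640 cells and 0.847, 1.39 and 2.11% in the 3 CDS groups of 1203 cells. The direction was common among genes: 67.5% of 13269 genes in saline and 83.7% of 12986 in CDS were higher in the top than in the bottom group, so in the CDS library 8 of 9 is near the share of all genes.

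Meg3 went from 631 through 764 to 885 CPM in the saline groups and from 277 through 382 to 548 in the CDS groups, a top-to-bottom ratio of 1.402 and 1.98. B830012L14Rik had ratios of 1.45 in saline and 2.40 in CDS, the largest of the 9 in both libraries. Kcnq1ot1 had 1.31 and 1.98, Neat1 1.31 and 1.60, and Gm26917 1.27 and 1.75. Malat1 went from 9470.1 to 11119 in saline and from 6751 to 9286 in CDS, ratios of 1.17 and 1.38. The smallest of the 8 was Gm34759 in saline, at 1.11, where the middle group, at 58.5, was not above the bottom group, at 58.7.

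Gm27168 went the other way in both libraries, from 15.5 through 13.8 to 11.99 CPM in saline and from 58.2 through 49.9 to 44.6 in CDS, ratios of 0.773 and 0.766. Gm11867 followed the other 7, from 34.3 to 40.9 in saline and from 3.29 to 5.51 in CDS, but its highest CDS group stayed far below its lowest saline group. The same held for Gm34759, at 29.4 in the highest CDS and 58.5 in the lowest saline group, whereas the CDS and saline groups of Malat1 nearly met, at 9286 and 9470.1.

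**Figure D5:**
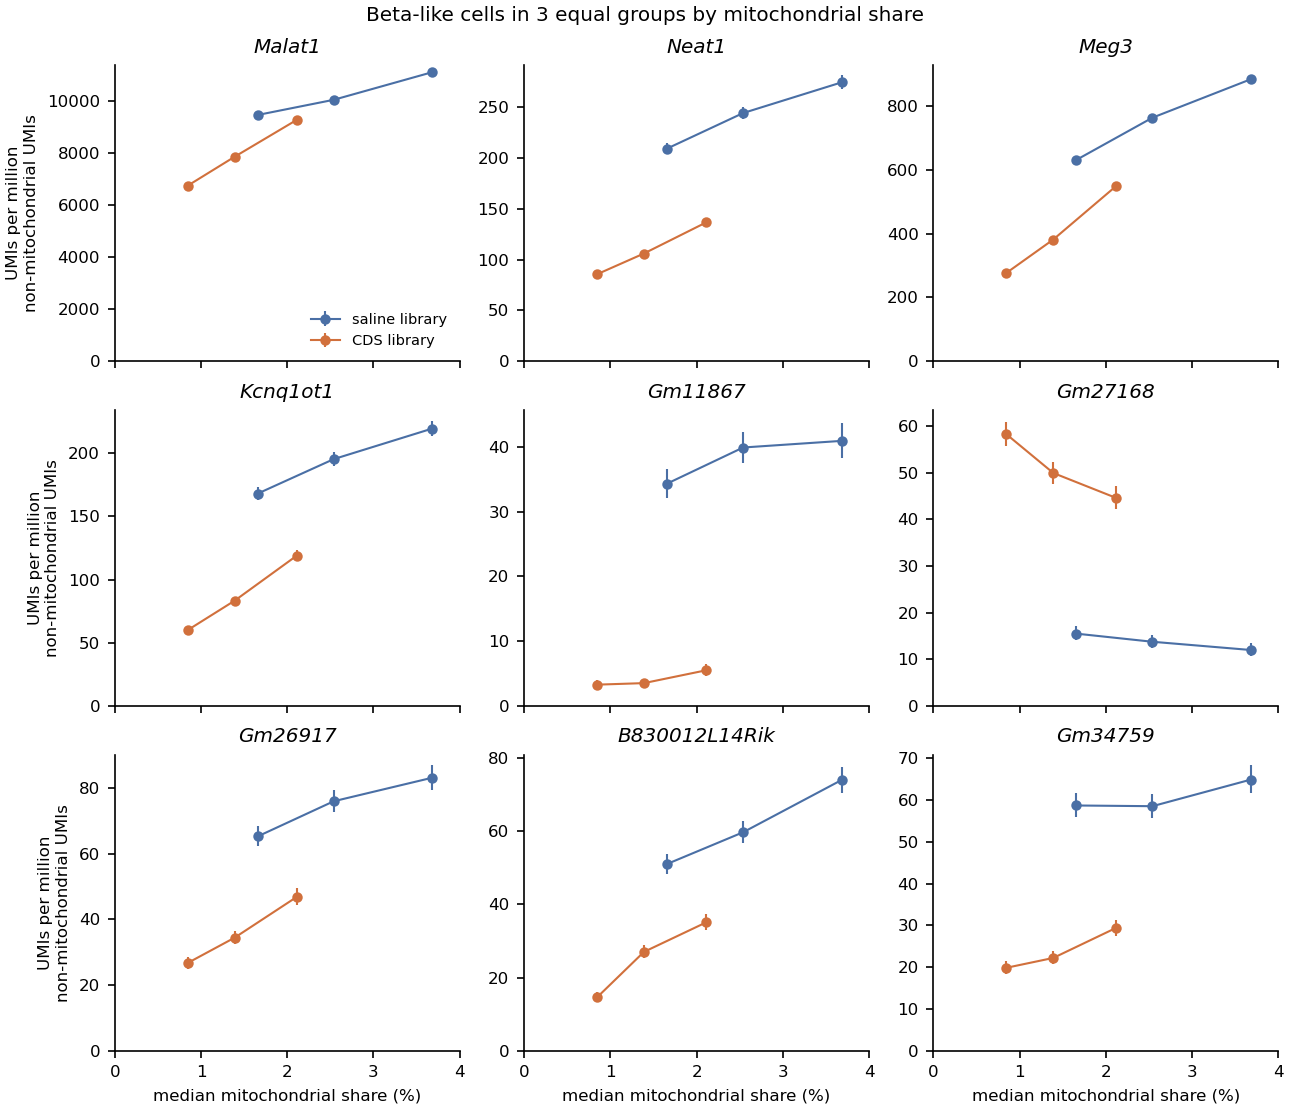
Level of each RNA (y, CPM of non-mitochondrial UMIs, linear axis from 0) in 3 equal groups of beta-like cells by mitochondrial share (x, median share of the group in percent), in the saline (blue) and the CDS (orange) library; bars are exact Poisson 95% intervals. The panels of 8 RNAs slope upward from the bottom to the top group and that of Gm27168 slopes downward, with ratios of 0.773 and 0.766.

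Other measures moved with the mitochondrial share. From the bottom to the top group the median insulin share went from 36.7 to 32.8% in saline and from 44.8 to 34.8% in CDS, while the long-gene share went from 13.1 to 15.6% and from 5.80 to 10.2%. The median depth was 16326, 16686 and 14456 UMIs in saline and 28465, 29845 and 24690 in CDS. Over single CDS beta-like cells, the Spearman correlation of the level with the long-gene share was 0.688 for Meg3, 0.670 for Malat1 and 0.567 for Kcnq1ot1, above their correlations with the mitochondrial share of 0.493, 0.311 and 0.320. The corresponding saline values were 0.454, 0.523 and 0.334 with the long-gene share and 0.277, 0.160 and 0.152 with the mitochondrial share. These are over cells of 1 library that share total and depth, and which of the measures the RNAs follow was not tested.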

How the data were processed

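Whole-number UMI counts per gene and barcode were deposited by the authors, 1 table per library. They were made with Cell Ranger 7.1.0, per the file headers; the submitters' processing notes also name Seurat 4, edgeR and mm10. Whether intronic reads were counted, and with which annotation, is not given in the sources used here, and the labels name both v3.1 and v2 chemistry. The noncoding RNAs and the gene lists were chosen with earlier results of these data known. Cells needed at least 500 genes and 1000 UMIs and at most 20% mitochondrial UMIs. Scanpy 1.11.5 (Scrublet) called 5.30% of saline and 3.99% of CDS cells doublets, which were removed. Classes were gated on markers, with thresholds set after the marker values were seen: insulin genes at least 15% of UMIs, Gcg 3%, Sst 2%, Ppy 5%, acinar enzymes 3%, at least 3 distinct markers for endothelial, macrophage and stromal cells, and 2 for B, T and dendritic cells. Cells that passed several gates (281 saline, 205 CDS) or none (1492, 504) were left out. Of gated beta-like cells 95.5% fell in clusters of that name. UMIs were summed per class. Ratios used TMM factors (edgeR 4.0.16) and exact conditional intervals, checked on simulated data. Positions are from GENCODE M21 (mm10), which held 32235 of the 32285 gene IDs. All 9 members were named, with the 3 genes of most similar levels (at least 50 CPM in a class), up to 2 genes per list with the largest ratio at 20 or more, and neighbouring genes. Alternatives were other filters, scalings, thinning, clusters, and cells of like depth or mitochondrial share. The level that free beta-cell RNA would give in another class, the beta-like level times the ratio of the median insulin shares, was added after seeing the data. A similar gene and a sequence are not reported here.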

Additional observations from a re-analysis of the deposited data

Results flagged for a closer look

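Gm26917 went in opposite directions in different classes under the same contrast. Its ratio, CDS over saline, was 2.18 in macrophage-like cells, against 0.638 in beta-like cells and 0.545 in endothelial-like cells, each with a counting interval on its own side of 1. With 1 library per group the difference between the classes was not tested. In the CDS macrophage-like cells 1 cell held 175 of 355 UMIs, and the ratio was 1.16 without the top cell of each library. The opposite directions did not hold under every setting. In macrophage-like cells the ratio was 0.444 after thinning to 5000 UMIs and 0.514 among cells of 5000 to 15000 UMIs, and in endothelial-like cells it was 1.11 as a mean over cells.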

How the results depend on the processing

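No paired analysis was possible because each group is 1 library, so the shared replicate number pairs nothing and a replicate cannot be left out. Under 13 alternatives to the 35 ratios, 425 of 442 values kept their direction, and of 262 values for the 21 ratios past 1.5-fold, 248 stayed past it. The log2 ratio of Gm26917 reversed in 3: to 0.147 in endothelial-like cells as a mean over cells, and in macrophage-like cells to -1.17 when thinned to 5000 UMIs and -0.961 among cells of 5000 to 15000 UMIs; the cause was not tested. Of the remaining changes of direction, 13 were Malat1. The number of members past 1.5-fold moved in some settings. With a mitochondrial share of 1.5 to 2% it was 3 against 7 in beta-like, 1 against 5 in endothelial-like and 1 against 4 in macrophage-like cells; in the last 2 classes few cells and 2 members with a value were left. Among cells of like depth, and against genes of like span, it was 4 against 2 in delta-like cells. Without the cell with most UMIs it was 2 against 4 in macrophage-like cells. With the lower fold tried it was 6 against 3 in alpha-like and 5 against 2 in delta-like cells, and with a fold of 2 it was 2, 1, 1, 3 and 2 in beta-, alpha-, delta-, endothelial- and macrophage-like cells. The count of 8 of 9 members higher at a high mitochondrial share was the same in both libraries under each of its 8 alternatives. Cells kept only by the looser filter had no doublet call. Settings for like depth, mitochondrial share and span, and without the top cell, were chosen after seeing the data.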
